A study of Mus musculus with 8 samples.

Results

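BH3-only proteins are the death agonists of the BCL2 family. They share with the rest of the family a short helix, the BH3 motif, which fits into the groove of pro-survival relatives such as BCL2, BCL-XL and MCL1, and some of them also engage the effectors BAX and BAK directly. Growth factor loss is a classic setting for their induction, and in developing B cells interleukin-7 (IL-7) is the cytokine that keeps survival ahead of death. The 8 genes described here were all rows of the arrays that carried the symbol Bmf, Bbc3 (Puma), Bcl2l11 (Bim), Pmaip1 (Noxa), Bid, Bad, Bik or Hrk. They are read by 10 probes. Of the 8 genes, 7 were among the 20674 genes tested, through 9 kept probes, and Hrk was left out because its probe was well above background on none of the 8 arrays.

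The RNA came from 1676 cells, a mouse pre-B cell line of genotype SLP-65-/- LAT-/-, which lacks a pair of signalling adaptors in the control cells as well. Retroviral vectors, either a control or one for the human microRNA gene hsa-miR-125b-1, were introduced and selected for in puromycin at 1 µg/ml. The cells then stayed in excess IL-7 or spent 24 h deprived of it, a step given as a way to make pre-B cells differentiate. Each of the 4 groups held 2 single-colour Agilent arrays, and the submitters describe 2 independent experiments, each with clones made anew. The line is a cultured mutant line, so these groups show 1 line and not pre-B cells of an animal.

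Levels are given as the log2 processed signal of a probe minus the log2 75th percentile of its own array, so that 1 unit is a 2-fold difference. Because probes differ in brightness, a level is compared between groups for the same probe and not between genes. With 2 arrays a group, groups often fail to overlap by chance. The share of all genes whose groups do not overlap was not counted, so overlap is given below as a description only. A gene was called when its Benjamini-Hochberg adjusted p from limma, over all genes of that comparison, was under 0.05. On each array 47.7% to 54.8% of 55681 probes were well above background, and 0 spots were saturated. Replicates correlated at r = 0.994 to 0.996 across genes. The 4 arrays of cells in IL-7 share a slide, a scan and a version of the scanner software, and the 4 arrays of cells without it share others, so an effect of withdrawal cannot be told apart from these. The vectors were compared within a slide, but control and miR-125b arrays sat in separate columns of it, so vector and column cannot be told apart either. All 10 listed pre-B markers, among them Cd79a, Vpreb1 and Il7r, were well above background on all 8 arrays, and of the 4 stromal markers 3 were so on none. Of the other lists, 3 of 5 myeloid markers, 3 of 5 T and NK cell markers, 3 of 4 plasma cell markers and 1 of 4 erythroid markers (3 of them on the array) were also well above background on all 8, while Cd3g was so on none. Sums of a list are the log2 of its added linear levels, so the brightest gene of a list weighs most. The pre-B list summed to 10.8 to 10.9 in cells given IL-7 and to 10.4 to 10.5 in deprived cells. The 4 listed plasma cell markers summed to 3.96 to 4.18 in control and 4.36 to 4.64 in miR-125b cells with IL-7, and 3.64 to 3.73 against 4.03 to 4.07 without it. That sum is mostly Xbp1, at 3.42 to 4.50 over the 8 arrays. Sdc1 reached at most 0.46, Prdm1 at most 0.67 and Jchain at most -4.38, so it does not show a shift of all 4 markers. The T and NK list summed to 2.57 to 2.73 in control and 2.06 to 2.61 in miR-125b cells with IL-7, and to 2.80 to 2.93 against 2.46 to 2.59 without it, where the vectors did not overlap and where Bid and Pmaip1 were called. The myeloid list summed to 3.66 to 4.06 over the 8 arrays, with Itgam, its brightest gene, at 3.39 to 3.90. The part of these shifts in the results below was not tested, and in bulk RNA fewer cells with a transcript and less transcript per cell cannot be told apart.

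The BH3-only genes went separate ways when IL-7 was withdrawn. Bmf rose 5.79-fold in control cells and 5.20-fold in miR-125b cells, and Bbc3 rose 1.73-fold and 1.28-fold. Bid fell 3.38-fold and 2.47-fold, and Bad fell 1.38-fold and 1.23-fold. Bik, whose dim probe was kept through the groups with IL-7 alone, fell in both as well. Bcl2l11 and Pmaip1 passed the test in neither. Between the vectors Bid, Pmaip1 and Bmf were called, of which Bid and Bmf had also been called on withdrawal. In the absence of IL-7, Bid was 2.34-fold and Pmaip1 1.52-fold higher in miR-125b than in control cells, and over both IL-7 conditions together Bmf was 1.51-fold lower with miR-125b.

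**Figure D1:**
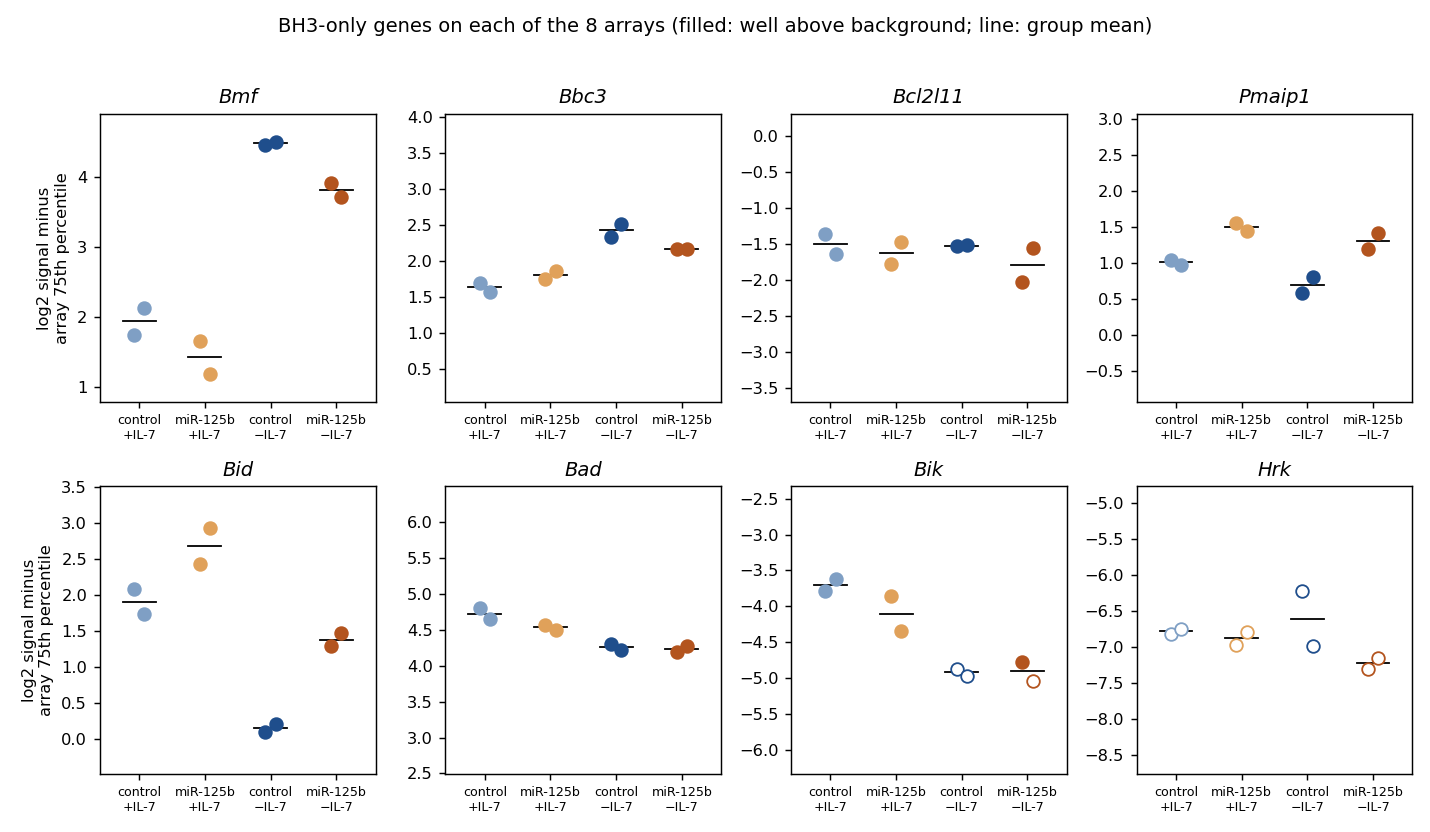
Level of each of the 8 genes on the 8 arrays (y axis: log2 signal minus the array's 75th percentile, with its own range in each panel), in the 4 groups of 2 arrays along the x axis. Points are arrays, filled where the probe was well above background, and lines are group means; Bmf stands highest and Bid lowest without IL-7, in each case more so in control cells, while Hrk has open points throughout.

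The microRNA under study is known to pair with its targets through bases 2 to 8 from its 5′ end, the seed. RefSeq gives mouse miR-125b-5p, encoded at chr9:41581940-41581961 on the plus strand of GRCm38.p6 and again on chromosome 16, as follows, with the seed in capitals to show which bases matter for pairing.
miR-125b-5p: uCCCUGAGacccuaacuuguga
The complement of that seed, CTCAGGG, was searched on the given strand of the array's 60-mer probes only, since the transcripts were not used here. It occurs in 1 of the 10 member probes, against 0.44% of all 55681 probes. A match is a description of the letters and not a site.

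Among the members that are known to act on BAX and BAK directly, Bid encodes a protein that caspase 8 cleaves to an active fragment. Its level in control cells with IL-7 was 2.09 and 1.74 on the 2 arrays, and in miR-125b cells with IL-7 it was 2.44 and 2.93. Without IL-7 it was 0.10 and 0.21 in control cells and 1.29 and 1.47 in miR-125b cells. The 4 groups did not overlap, and how many of all genes do likewise was not counted. Their order from high to low was miR-125b with IL-7, control with IL-7, miR-125b without and control without IL-7. On withdrawal Bid fell by 1.76 ± 0.20 (log2 change ± SE, adjusted p = 0.00177) in control cells and fell by 1.30 ± 0.20 (adjusted p = 0.0039) in miR-125b cells. The difference between these falls was 0.46 with a 95% interval from -0.23 to 1.14 and did not pass (adjusted p = 0.952), which does not show that they were alike. The miR-125b cells were higher by 1.23 ± 0.20 without IL-7 (adjusted p = 0.0295). With IL-7 the difference of 0.77 ± 0.20 did not pass (adjusted p = 0.11), and the average over both conditions, 1.00 ± 0.14, did (adjusted p = 0.0115). The call without IL-7 was lost when any 1 of the 4 arrays without IL-7 was left out (without control replicate 1, 1.17 and adjusted p = 0.153; without control replicate 2, 1.28 and 0.102; without miR-125b replicate 1, 1.31 and 0.125; without miR-125b replicate 2, 1.14 and 0.144). The average kept its call with each of the 8 arrays left out in turn (0.88 to 1.12). The Bid probe lies at chr6:120843464-120843523 on the minus strand of mm9, the build of the files.

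Bid and Bmf are the members that moved most on withdrawal, so the bases around their annotated starts are shown, from RefSeq on GRCm38.p6, as 250 bases before to 50 after the 5′-most start, on the minus strand in both. RefSeq start windows were found for 6 of the 8 members, 12 windows in all.
Bid chr6:120916775-120917074: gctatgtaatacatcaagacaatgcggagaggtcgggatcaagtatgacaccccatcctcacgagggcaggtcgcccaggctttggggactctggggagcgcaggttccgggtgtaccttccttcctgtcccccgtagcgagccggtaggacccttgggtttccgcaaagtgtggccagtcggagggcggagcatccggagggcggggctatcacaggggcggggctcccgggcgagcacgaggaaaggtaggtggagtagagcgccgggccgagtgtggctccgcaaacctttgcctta
Bmf chr2:118549637-118549936: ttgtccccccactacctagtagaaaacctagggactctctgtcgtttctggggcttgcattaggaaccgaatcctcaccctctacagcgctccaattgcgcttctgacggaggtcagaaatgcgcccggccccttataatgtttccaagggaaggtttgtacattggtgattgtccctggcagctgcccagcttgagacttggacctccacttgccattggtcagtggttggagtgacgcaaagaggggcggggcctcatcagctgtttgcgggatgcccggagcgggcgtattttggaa
The 12 windows were searched on both strands for GTAAACA (the FOXO core), CACGTG (the E-box that MYC binds), TGANTCA (AP-1) and TTCNNNGAA (STAT). The FOXO letters occur in 2 of the 12 windows, 1 each of Bbc3 and Bcl2l11, against 3.65% of 32851 windows of all genes. The E-box occurs in 1, of Bbc3, against 7.15%. The AP-1 letters, in 7.81% of all windows, and the STAT letters, in 8.3%, occur in 0 of the 12. The 2 windows with the FOXO letters, in capitals below, belong to 1 gene that rose on withdrawal and 1 that did not pass.
Bbc3 chr7:16310011-16310310, plus strand: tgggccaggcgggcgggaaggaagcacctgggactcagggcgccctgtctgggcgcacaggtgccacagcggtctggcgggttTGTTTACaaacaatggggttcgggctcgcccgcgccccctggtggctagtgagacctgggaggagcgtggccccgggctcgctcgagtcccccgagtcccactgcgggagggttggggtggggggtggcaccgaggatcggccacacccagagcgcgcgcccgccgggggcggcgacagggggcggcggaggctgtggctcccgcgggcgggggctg
Bcl2l11 chr2:128125788-128126087, plus strand: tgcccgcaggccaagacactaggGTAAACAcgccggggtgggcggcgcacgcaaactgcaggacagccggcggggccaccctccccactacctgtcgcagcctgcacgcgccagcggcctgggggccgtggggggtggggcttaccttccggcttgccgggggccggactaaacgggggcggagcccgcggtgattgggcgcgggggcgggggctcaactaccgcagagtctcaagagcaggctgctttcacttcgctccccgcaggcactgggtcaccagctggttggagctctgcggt

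Bbc3 encodes PUMA, a p53 and FOXO target that binds every pro-survival family member and that has been reported as a miR-125b target. Its level was 1.69 and 1.57 in control and 1.75 and 1.87 in miR-125b cells with IL-7. Without IL-7 it was 2.34 and 2.51 in control and 2.16 and 2.17 in miR-125b cells. Both groups without IL-7 lay above both with it, and the miR-125b arrays lay above the control arrays with IL-7 and below them without. How many of all genes show such a pattern was not counted. The rise on withdrawal was 0.79 ± 0.10 (log2 change ± SE, adjusted p = 0.00199) in control and 0.36 ± 0.10 (adjusted p = 0.0227) in miR-125b cells. The second of these lost its call without miR-125b replicate 1 with IL-7 (0.30, adjusted p = 0.0944) and without replicate 1 (0.36, 0.0863) or replicate 2 (0.36, 0.0873) of miR-125b without IL-7. The difference between the rises, -0.43 with a 95% interval from -0.76 to -0.10, had an unadjusted p of 0.019 and did not pass over all genes (adjusted p = 0.707). Neither vector comparison passed, at 0.17 ± 0.10 with IL-7 (adjusted p = 0.368) and -0.26 ± 0.10 without (adjusted p = 0.166). The Bbc3 probe lies at chr7:16903403-16903462 on the plus strand of mm9.

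Bcl2l11 encodes BIM, the BH3-only protein best known from cytokine-deprived lymphocytes. It was read by 2 probes. The probe that stands for the gene crosses a splice junction, since its 60 bases span chr2:127972893-127983988 (mm9, plus strand). It covers part of the coding sequence of the BH3 motif, whose central codons are in capitals.
Bcl2l11 probe: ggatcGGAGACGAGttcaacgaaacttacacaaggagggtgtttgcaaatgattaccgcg
Here the level was -1.36 and -1.64 in control and -1.78 and -1.47 in miR-125b cells with IL-7, and -1.53 and -1.52 in control and -2.02 and -1.56 in miR-125b cells without it. These groups overlapped except for the vectors without IL-7. The change on withdrawal was -0.02 with a 95% interval from -0.50 to 0.46 in control cells (adjusted p = 0.931) and -0.17, from -0.65 to 0.31, in miR-125b cells (adjusted p = 0.49). The vector differences were -0.12 ± 0.19 with IL-7 and -0.27 ± 0.19 without (adjusted p = 0.779 and 0.453). The second probe, named as Bcl2l11 in the grid of the arrays with IL-7 only, gave changes of -0.22 ± 0.22 and -0.24 ± 0.22 on withdrawal (adjusted p = 0.421 and 0.391), with none of its comparisons past the test. Levels of RNA say nothing of the BIM protein, which is also controlled after translation.

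The remaining members are known as sensitizers, which release effectors by occupying pro-survival proteins. Bmf, whose protein docks on a dynein light chain, gave the largest change of the 7 tested members. Its level was 1.75 and 2.14 in control and 1.66 and 1.20 in miR-125b cells with IL-7. Without IL-7 it was 4.46 and 4.49 in control and 3.91 and 3.71 in miR-125b cells. The order from high to low was control without IL-7, miR-125b without, control with and miR-125b with IL-7, with no overlap between neighbours. How many of all genes show such an order was not counted. The rise on withdrawal was 2.53 ± 0.20 (log2 change ± SE, adjusted p = 0.00122) in control and 2.38 ± 0.20 (adjusted p = 0.00166) in miR-125b cells, and their difference was -0.15 with a 95% interval from -0.84 to 0.53 (adjusted p = 0.993). The difference of miR-125b from control cells was -0.51 ± 0.20 with IL-7 and -0.67 ± 0.20 without. Neither passed alone (adjusted p = 0.225 and 0.108), and the average, -0.59 ± 0.14, did (adjusted p = 0.0424). That call was lost when control replicate 2 with IL-7 (-0.50, adjusted p = 0.0996), miR-125b replicate 2 with IL-7 (-0.48, 0.0819) or any array without IL-7 was left out, namely control replicate 1 (-0.60, 0.117), control replicate 2 (-0.58, 0.108), miR-125b replicate 1 (-0.64, 0.0909) or miR-125b replicate 2 (-0.54, 0.129). The Bmf probe lies at chr2:118354496-118354555 on the minus strand of mm9.

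Pmaip1 encodes NOXA, a p53 target that binds MCL1. Its level was 1.04 and 0.97 in control and 1.56 and 1.45 in miR-125b cells with IL-7, and 0.58 and 0.81 in control and 1.19 and 1.41 in miR-125b cells without it. All 4 miR-125b arrays lay above all 4 control arrays, and the share of all genes with such a split was not counted. The difference was 0.61 ± 0.12 without IL-7 (log2 change ± SE, adjusted p = 0.0426), 0.49 ± 0.12 with IL-7 (adjusted p = 0.0951) and 0.55 ± 0.08 on average (adjusted p = 0.0135). The call without IL-7 was lost with every one of the 8 arrays left out: adjusted p was 0.0634 to 0.0691 without any 1 of the arrays with IL-7, where the value stays 0.61, and 0.202, 0.0886, 0.121 and 0.18 without control replicates 1 and 2 and miR-125b replicates 1 and 2 of the cells without IL-7, where it was 0.49, 0.72, 0.71 and 0.50. The average lost its call only without control replicate 1 without IL-7 (0.49, adjusted p = 0.051). On withdrawal the changes were -0.31 ± 0.12 in control and -0.20 ± 0.12 in miR-125b cells (adjusted p = 0.0679 and 0.201).

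Bad encodes a protein held by 14-3-3 proteins when growth factor kinases phosphorylate it. Its main probe (chr19:7026323-7026382, mm9, plus strand) read 4.80 and 4.64 in control and 4.57 and 4.50 in miR-125b cells with IL-7, and 4.30 and 4.21 in control and 4.20 and 4.27 in miR-125b cells without it. All 4 arrays without IL-7 lay below all 4 with it, a pattern that was not counted over all genes. Relative to the 75th percentile Bad fell by 0.46 ± 0.09 (log2 change ± SE, adjusted p = 0.00683) in control cells and fell by 0.30 ± 0.09 (adjusted p = 0.0294) in miR-125b cells. Before scaling, the signal of this probe was higher without IL-7. It was 7873 and 6891 with IL-7 and 10134 and 10525 without in control cells, and 7449 and 6706 against 10544 and 11946 in miR-125b cells. The 75th percentiles were 276 to 314 with IL-7 and 515 to 619 without. The second Bad probe, at another place in the transcript, gave changes of -0.38 ± 0.09 and -0.32 ± 0.09 (adjusted p = 0.0169 and 0.0301). In miR-125b cells the call of the main probe was lost with 6 of the 8 arrays left out: without miR-125b replicates 1 and 2 with IL-7 (-0.27 and -0.34, adjusted p = 0.109 and 0.069), without control replicates 1 and 2 without IL-7 (-0.30 and 0.0508 in both) and without miR-125b replicates 1 and 2 without IL-7 (-0.27 and -0.34, 0.13 and 0.0743). With quantile normalization the changes came to -0.21 and -0.02 and neither passed (adjusted p = 0.0639 and 0.886). The vector differences were -0.19 ± 0.09 with IL-7 and -0.02 ± 0.09 without, and neither passed (adjusted p = 0.3 and 0.897).

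Bik, whose product acts at the endoplasmic reticulum, had a dim probe (chr15:83374048-83374107, mm9, plus strand). With IL-7 it read -3.79 and -3.62 in control and -3.86 and -4.35 in miR-125b cells and was well above background on all 4 arrays. Without IL-7 it was not well above background on either control array, and on the miR-125b arrays it read -4.77, well above background, and -5.04, not so. The probe was thus kept through the groups with IL-7 alone. Relative to the 75th percentile it was at least 1.65-fold lower in control cells without IL-7 (adjusted p of the fit = 0.00347, group means -3.70 and -4.92). That bound sets each dim array at its faintest detected signal. Before scaling, the signal in control cells was 20.5 and 22.4 with IL-7 and 17.5 and 18.2 without. The 75th percentiles of those arrays were 283 and 276 with IL-7 and 515 and 567 without. In miR-125b cells the fitted change was -0.80 ± 0.18 (adjusted p = 0.0138), with 1 of the 2 arrays dim, and its call was lost without miR-125b replicate 2 without IL-7 (-0.67, adjusted p = 0.0722). The vectors differed by -0.40 ± 0.18 with IL-7, which did not pass (adjusted p = 0.295). Hrk, a BH3-only gene known from neurons, read -7.30 to -6.23 on the 8 arrays and was not well above background on any (chr5:118639423-118639482, mm9, plus strand), so no change is given.

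**Figure D2:**
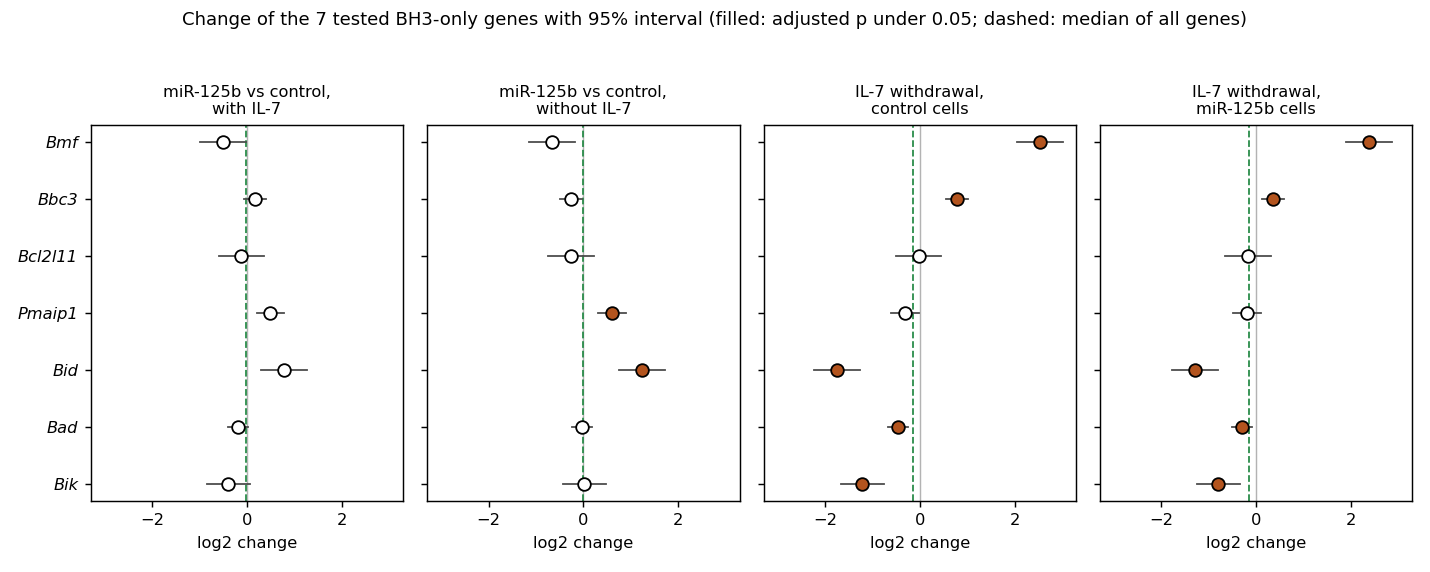
Log2 change (x axis) of the 7 tested members in 4 comparisons, with its 95% interval; filled points passed at an adjusted p under 0.05, and the dashed line is the median of all 20674 genes. Bmf at 2.53 and 2.38 and Bid at -1.76 and -1.30 lie farthest from zero on withdrawal, and 2 points, Pmaip1 and Bid, are filled between the vectors.

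Counted by comparison, withdrawal of IL-7 in control cells changed 5 of the 7 tested members, 2 higher and 3 lower. Of all genes tested 54.5% were called in that comparison, 19.5% higher and 35% lower, so calls as such are common there. In miR-125b cells the same 5 members were called, 2 higher and 3 lower, against 53.6% of all genes, with 18.6% higher and 35% lower. Both comparisons were made on different arrays, but in the same fit with a shared estimate of the spread. They also share the split of slide, scan and software version, so they do not back each other independently. Bik, among the lower in each, had a probe kept only through the groups with IL-7, so the filter itself favoured a fall. The median change of the 7, with Bik counted among them, was -0.31 and -0.20, beside -0.14 and -0.15 over all genes. Because Bik counts in it, no shift of the members as a set is read from that median.

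The sizes on withdrawal are relative to each array's 75th percentile. Scaled instead to 6 Agilent E1A spike-in probes, an alternative chosen after seeing the data, the median of all genes moved to 1.92 in control and 2.01 in miR-125b cells, and the signs of Bid, Bad, Bik, Pmaip1 and Bcl2l11 turned: Bid stood at 0.31 and 0.86, Bad at 1.60 and 1.86, Bik at 0.85 and 1.36, Pmaip1 at 1.75 and 1.96 and Bcl2l11 at 2.04 and 1.99. Against that median Bid and Bik were still the lowest of the members. Every fall or rise on withdrawal named here is therefore a change relative to the other genes of the array. The part of spike-in amount, labelling and scan in that shift was not tested.

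With IL-7, 0 of the 7 members were called between the vectors by limma, with 3 at an unadjusted p under 0.05, Bmf, Pmaip1 and Bid. Over all genes 2.36% were called there, 1.17% higher and 1.19% lower in miR-125b cells. Without IL-7, 2 members were called, Bid and Pmaip1, both higher, against 6.42% of all genes, 2.83% higher and 3.58% lower. Averaged over both IL-7 conditions, 3 members were called, Bid and Pmaip1 higher and Bmf lower, against 15.6% of all genes, 7.57% higher and 8% lower. The members' median change was -0.12 with IL-7, -0.02 without and -0.11 on average, beside -0.02 over all genes in each. The difference of the withdrawal response between the vectors was called for 0 members and 0% of all genes, in either direction or in each, with 1 member (Bbc3) and 1225 of all genes at an unadjusted p under 0.05.

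Some calls depended on the settings. Under normexp background or a mean-variance trend, Pmaip1 (0.53 and 0.49, adjusted p = 0.0426 and 0.0295) and Bid (0.77 in both, 0.0369 and 0.0286) passed with IL-7, and Bmf (-0.67 in both, 0.024 and 0.0308) without it. With no filter on dim probes Bid and Pmaip1 lost their calls without IL-7 (adjusted p = 0.0661 and 0.103), Bmf in the average (0.101), and Bbc3 and Bad on withdrawal in miR-125b cells (0.0737 and 0.0965). Under median scaling Bmf in the average stood at -0.45 (adjusted p = 0.0895) and Bbc3 on withdrawal in miR-125b cells at 0.14 (0.459). Bcl2l11 on withdrawal in miR-125b cells passed under normexp background, at -0.37 (adjusted p = 0.0211), and with the opposite sign under the spike-ins (1.99, 4.05e-05), and Pmaip1 on withdrawal in control cells passed under median scaling (-0.64, 0.0144), a trend (-0.31, 0.0339) and a filter for probes detected on every array (-0.31, 0.0481), and with the opposite sign under the spike-ins (1.75, 2.84e-05).

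The direction of the calls over all genes moved with the scaling. With IL-7, the split of higher to lower was 242 to 246, and 165 to 88 when arrays were scaled to their median and 139 to 79 with the spike-ins. Without IL-7 it was 586 to 741, 708 to 190 and 547 to 196 in the same order, and for the average 1566 to 1654, 2073 to 554 and 1700 to 607. Median scaling moved the median of all genes to 0.07, 0.18 and 0.13 in these comparisons, and Bid, Pmaip1 and Bmf kept their signs under it and under the spike-ins. Calls were not all kept: Bmf lost its call in the average under both, and Pmaip1 its call without IL-7 under the spike-ins. Of 21 alternatives, 13 lost the call of Pmaip1 without IL-7, 6 that of Bid without IL-7 and 10 that of Bmf in the average. In the average 1 lost that of Pmaip1 and 0 that of Bid. For withdrawal in control cells the split was 4026 to 7241, 2119 to 10687 with median scaling, 4881 to 5782 with quantile normalization, 4876 to 5769 in the deposited table and 20064 to 17 with the spike-ins. In miR-125b cells it was 3838 to 7242, and 3094 to 10339 with normexp background, 2397 to 9215, 4658 to 5065, 4684 to 5050 and 20251 to 20 in the same order.

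Around the BH3-only proteins stand the genes that they act on and that act on them, 48 listed by role, of which 43 were tested. On withdrawal 9 rose and 17 fell in control cells and 10 rose and 17 fell in miR-125b cells, with medians of -0.20 in both. These shares lie near the 54.5% and 53.6% of all genes called. Between the vectors 0 of the 43 were higher and 1 lower with IL-7, 2 higher and 4 lower without, and 4 higher and 6 lower on average, beside 2.36%, 6.42% and 15.6% of all genes called in either direction.

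All 3 effectors, which open the outer mitochondrial membrane, were tested. On withdrawal 2 fell in control cells and 3 in miR-125b cells, beside 35% of all genes in each. Bok fell by 2.57 ± 0.40 (log2 change ± SE, adjusted p = 0.0038) in control cells and fell by 3.12 ± 0.40 (adjusted p = 0.00261) in miR-125b cells, and Bak1 changed by -0.31 ± 0.08 and -0.61 ± 0.08 (adjusted p = 0.023 and 0.00301). Bax fell by 0.38 ± 0.12 in miR-125b cells (adjusted p = 0.0337) and stood at -0.26 ± 0.12 in control cells (adjusted p = 0.105). Bak1, a reported miR-125b target, was lower with miR-125b, at -0.61 ± 0.08 without IL-7 (adjusted p = 0.0199) and -0.46 ± 0.06 on average (adjusted p = 0.00922). Like the changes of the members, these are relative to the other genes of the array.

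Of the 8 listed pro-survival genes, whose proteins the BH3-only proteins bind, 4 were tested. Bcl2l1, which encodes BCL-XL, rose by 0.78 ± 0.09 in control and 0.75 ± 0.09 in miR-125b cells on withdrawal (adjusted p = 0.00183 and 0.00233). Bcl2l2 rose by 0.67 ± 0.11 and 0.36 ± 0.11 (adjusted p = 0.00467 and 0.0371), and Bcl2 by 0.47 ± 0.15 in miR-125b cells (adjusted p = 0.0406). Mcl1 was not called on withdrawal. With miR-125b it was lower, at -0.62 ± 0.07 without IL-7 (adjusted p = 0.0127) and -0.47 ± 0.05 on average (adjusted p = 0.00515), and Bcl2l2 was lower on average, at -0.31 ± 0.08 (adjusted p = 0.0494). Called higher with miR-125b were 0 of the 4. Of all genes 1.17% were called higher with IL-7, 2.83% without and 7.57% on average, so 0 of 4 is unremarkable.

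The 8 transcription factors known to induce BH3-only genes moved in both directions. Jun, the AP-1 subunit downstream of JNK, rose by 1.49 ± 0.07 and 1.04 ± 0.07 after IL-7 loss in control and miR-125b cells (adjusted p = 0.000446 and 0.00124). Named outside the rule, after its values were seen, Foxo1, a FOXO factor freed when growth factor signalling stops, rose by 0.35 ± 0.09 and 0.34 ± 0.09 (adjusted p = 0.0184 and 0.0204). Foxo3, named likewise, rose by 0.37 ± 0.08 in miR-125b cells (adjusted p = 0.00998), although its 2 probes disagreed in sign there (-0.55 and 0.37). Others fell in both: Myc changed by -2.12 ± 0.25 and -1.49 ± 0.25 (adjusted p = 0.00194 and 0.00526), Trp53 by -0.80 ± 0.15 and -0.69 ± 0.15 (0.00748 and 0.0125) and E2f1 by -0.65 ± 0.08 and -0.40 ± 0.08 (0.00184 and 0.0074). With miR-125b, Jun was lower, at -0.63 ± 0.07 with IL-7 (adjusted p = 0.026), the 1 listed gene called there, and -1.08 ± 0.07 without (adjusted p = 0.00601). Myc was higher by 1.46 ± 0.25 without IL-7 (adjusted p = 0.0334) and E2f1 by 0.37 ± 0.08 (adjusted p = 0.0471).

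Proteins that hold, cleave or modify BH3-only proteins were 18 tested of 19 listed. On withdrawal 2 rose and 9 fell in control cells and 1 rose and 8 fell in miR-125b cells, beside 54.5% and 53.6% of all genes called and 35% lower in each. Ywhaq, a 14-3-3 gene, changed by -0.53 ± 0.09 and -0.49 ± 0.09 (adjusted p = 0.00467 and 0.00606), and Akt1, the kinase that phosphorylates BAD, by -0.49 ± 0.08 and -0.51 ± 0.08 (0.00491 and 0.00469). Casp8, which cleaves BID, changed by -0.32 ± 0.07 and -0.38 ± 0.07 (adjusted p = 0.0108 and 0.00639). Pim2, a kinase that also phosphorylates BAD, was lower with miR-125b, at -0.47 ± 0.08 without IL-7 (adjusted p = 0.0307). Of the genes downstream of the mitochondrion, Apaf1, which encodes the scaffold of the apoptosome, rose by 0.60 ± 0.09 and 0.56 ± 0.09 (adjusted p = 0.00311 and 0.00421), while Cycs, the cytochrome c gene, fell (-0.69 and -0.76, adjusted p = 0.01 and 0.00762). Of the 4 other genes with a BH3-like motif Huwe1, which encodes the MCL1 ubiquitin ligase MULE, and Bnip3l rose in both, Huwe1 by 0.55 ± 0.10 and 0.41 ± 0.10 (adjusted p = 0.00555 and 0.0155). The 4 probes of Bnip3l ran from 0.03 to 0.35 in control cells and disagreed in sign in miR-125b cells (-0.02 to 0.25).

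**Figure D3:**
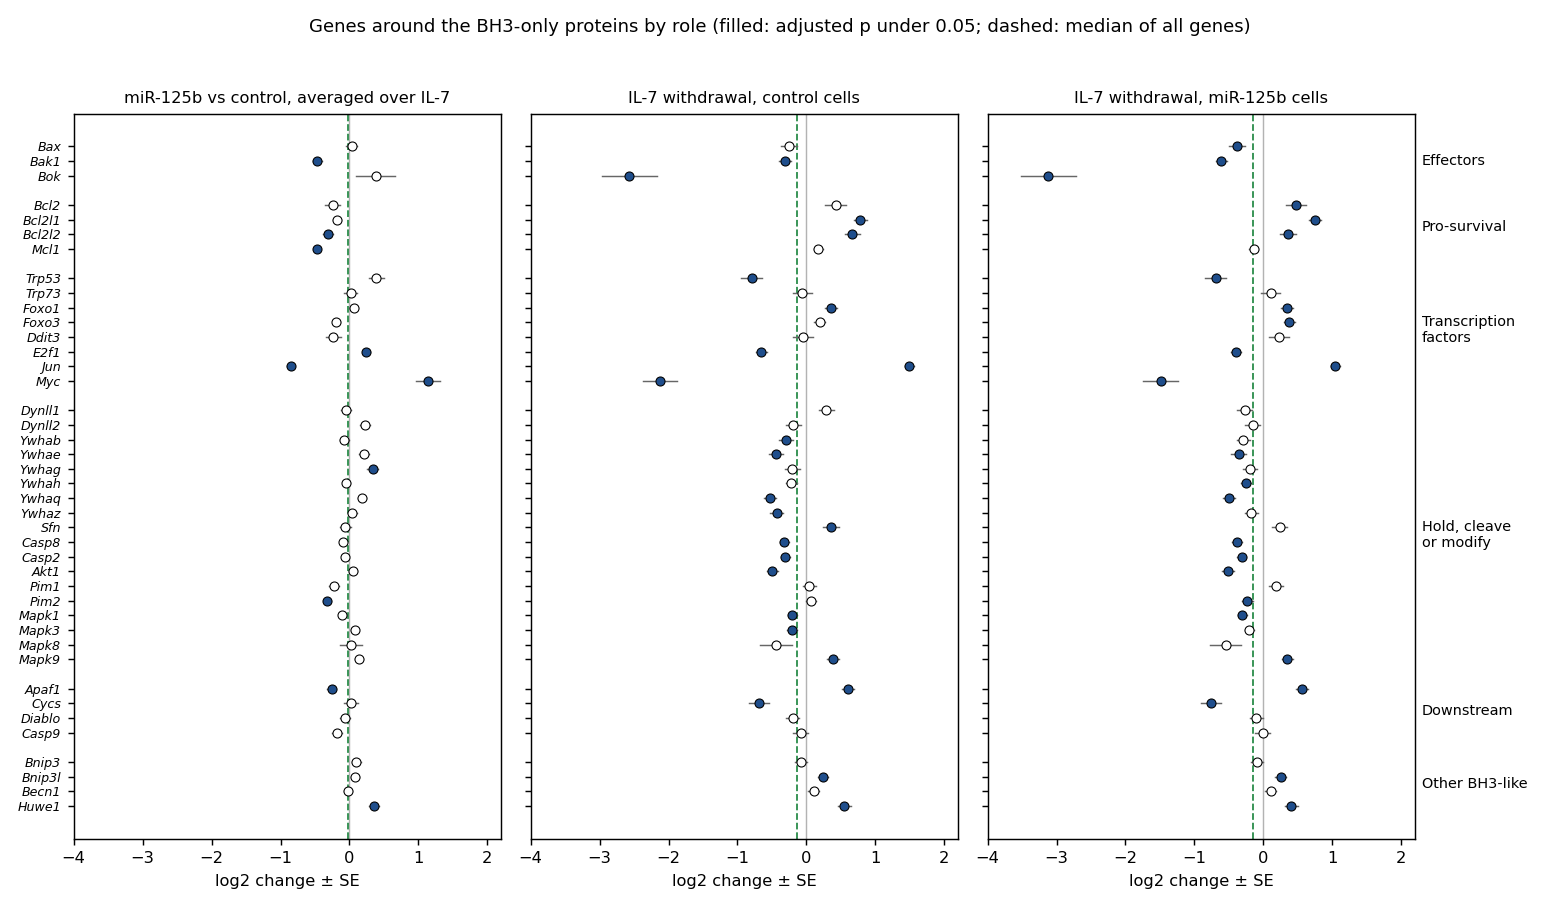
Log2 change ± SE (x axis) of 41 of the 43 tested genes around the BH3-only proteins, by role, for the vector average and for withdrawal in each kind of cell; filled points passed at an adjusted p under 0.05 and the dashed line is the median of all genes. Bok and Myc lie farthest to the left on withdrawal and Jun farthest to the right, and Jun and Myc lie on opposite sides in the vector average.

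The genes whose levels ran most like a member's were looked up by Pearson correlation over the 8 arrays. The search covered 11873 genes with a symbol that were detected on all of them. The arrays share the split by slide and IL-7, so high values are common and are given as a description. For Bmf these were Dclre1c, the Artemis nuclease of V(D)J recombination (r = 0.999), B020031M17Rik and Btg1, an antiproliferative gene (r = 0.998 for both). For Bid they were Myc (r = 0.999), Arl2 and Srm, the spermidine synthase gene (r = 0.998 for both). Myc ran from 1.19 on a control array without IL-7 to 4.47 on a miR-125b array with it, and Bid was lowest and highest on those same 2 arrays. The other members had lower values. Bbc3 was most like Csnk1g1 (r = 0.989), Pmaip1 like Gna12 (0.988), Bad like Tirap (0.991) and Bcl2l11 like Haus2 (0.963).

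**Figure D4:**
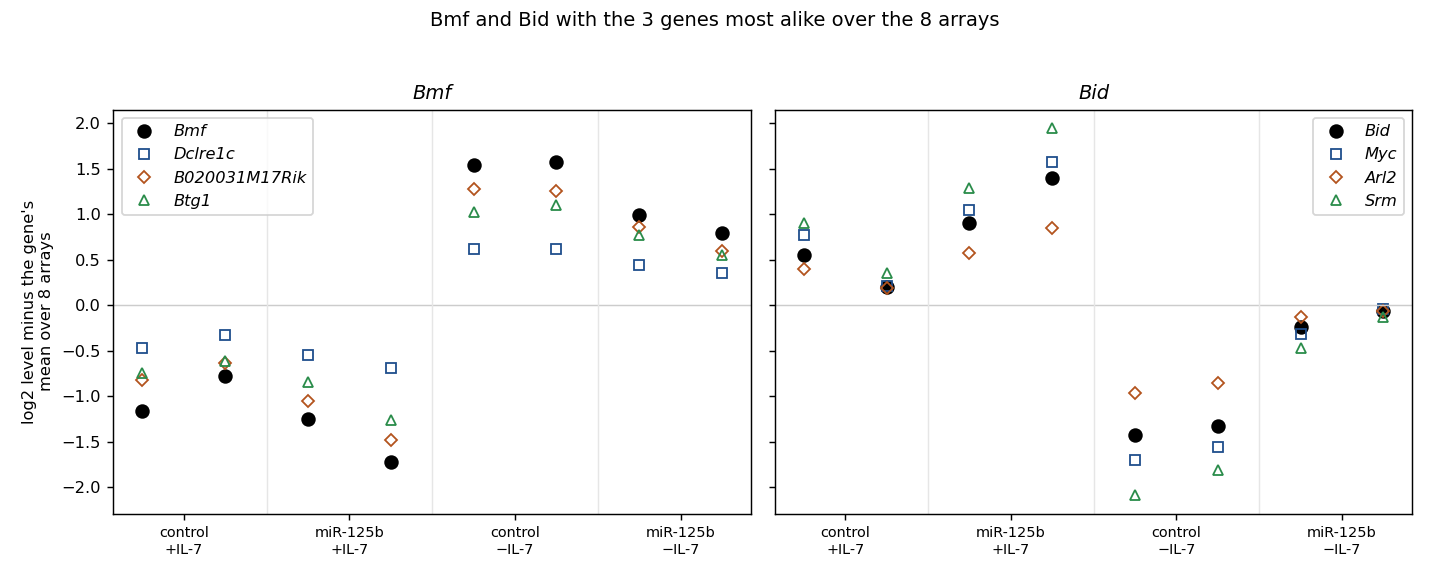
Level minus the gene's own mean over 8 arrays (y axis, log2) of Bmf and Bid and the 3 genes most like each, with the 2 arrays of each group side by side. The Bmf panel is high without IL-7 and the Bid panel low, and in both the miR-125b arrays without IL-7 lie between the control arrays without it and the arrays with IL-7.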

How the data were processed

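RNA from 8 samples was read on single-colour (Cy3) Agilent 60-mer arrays, 100 ng labelled per sample, after growth in medium with 7.5% FCS, per the labels' protocols. Per the file headers, the scanner files hold a processed signal as a linear intensity, background-subtracted and not scaled between arrays, and per-spot marks of another kind (0 or 1, well above background). The headers name Feature Extraction 10.7.3.1 with IL-7 and 10.7.1.1 without, while the submitters' processing notes name 10.7.1.1. A deposited intensity matrix, whose columns share 1 median (21.7) and whose scaling is unstated, served as an alternative.

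From the scanner signal, control spots and 58 probes with non-uniform spots were dropped, spots were averaged, and log2 minus the array's 75th percentile was taken. A probe was kept if some group had it well above background on both its arrays (29807 probes), and each gene was read by its kept probe of highest mean. A model of 4 group means was fitted with limma 3.58.1 in R 4.3.3 (with data.table in version 1.17.8), with 4 residual and 1.83 prior degrees of freedom; all p are two-sided and the code was tested on simulated data. The number of arrays limits the precision. Replicates are repeat experiments with separate clones.

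Members and gene lists were chosen with earlier results of these data known. All members were described; of the other listed genes, those called, at most 4 per role and comparison with the largest change; and the 3 genes most correlated with each member detected on all arrays. Some listed genes are not reported here. Alternatives covered background, scaling, filter, probe choice, gene names, variance trend, arrays fitted, replicate block, slide block and leaving out each array.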

Additional observations from a re-analysis of the deposited data

Results flagged for a closer look

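Bbc3 moved opposite ways with miR-125b in the 2 IL-7 conditions: every miR-125b array lay above the control arrays with IL-7 (difference 0.17) and below them without it (-0.26). With 2 arrays a group, groups often fail to overlap by chance, and how many of all genes show this pattern was not counted. Neither vector comparison passed. The difference of these changes was -0.43 and did not pass over all genes in limma (adjusted p = 0.707), and stayed above the threshold under 19 alternatives (adjusted p 0.555 to 1.00).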

How the results depend on the processing

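Under the alternatives, the count of members called stayed within 1.5 times for the average over IL-7, withdrawal in control cells and the difference, apart from arrays left out. For the average this bound still allows the loss of Bmf, with no filter, median scaling, a replicate block or the spike-ins. For withdrawal in control cells it hides a turn of direction under the spike-ins, where Bad and Bik passed as higher and Bid did not pass. With IL-7 it was 2 with normexp background or a mean-variance trend, against 0. Without IL-7 it was 0 with no filter on dim probes, 1 with all probes fitted separately, with only the arrays compared or with the spike-ins, against 2. For withdrawal in miR-125b cells it was 3 with no filter, against 5. Leaving out 1 array gave 0 to 1 called without IL-7, 1 to 3 for the average and 2 to 5 for withdrawal in miR-125b cells; an array left alone in its group is assumed to vary like the others.

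The replicate numbers were not taken to pair the samples: deviations of same-numbered arrays correlated at -0.098 to 0.113. With a replicate block Bid and Pmaip1 lost their calls without IL-7 (adjusted p = 0.061 and 0.081; 0 members called against 2) and Bmf its call in the average (0.0746), and over all genes there were 21, 425, 2106, 10523, 10375 and 0 calls in the order with IL-7, without, average, withdrawal in control, in miR-125b cells and difference.

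Several values changed sign. Normexp background turned Bik without IL-7 to -0.14 and its difference to -0.0098. Median scaling turned Bad without IL-7 to 0.17, Bad on average to 0.036 and Bbc3 on average to 0.099, and the spike-ins turned these to 0.13, 0.0034 and 0.066. The spike-ins also turned withdrawal of Bcl2l11 (2.04 and 1.99), Pmaip1 (1.75 and 1.96), Bid (0.31 and 0.86), Bad (1.60 and 1.86) and Bik (0.85 and 1.36) in control and miR-125b cells; Bid, Bad and Bik had been called lower there, and all of these turned values but that of Bid in control cells passed as higher. With 1 array left out, values that changed sign ranged from -0.27 to 0.037 for Bcl2l11 with IL-7, -0.16 to 0.12 and -0.40 to 0.065 for its change on IL-7 loss in control and in miR-125b cells and -0.38 to 0.087 for its difference. They ranged from -0.066 to 0.018 for Bad and -0.12 to 0.15 for Bik without IL-7, -0.085 to 0.00048 for Bbc3 on average, -0.39 to 0.078 for the difference of Bmf and -0.00027 to 0.23 for that of Pmaip1. None of the values with 1 array left out in these comparisons passed the test. The cause was not tested.

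Counts over all genes that moved by more than 1.5 times were, with IL-7 (488), 785 with normexp background, 253 with median scaling, 0 with no filter and with only the arrays compared (3734 and 2966 at an unadjusted p under 0.05), 909 with probes detected on all arrays, 1443 with a trend, 218 with the spike-ins and 0 to 139 with 1 array left out. Without IL-7 (1327) they were 2704 with normexp, 2071 with quantile normalization, 2067 in the deposited table, 619 with no filter, 2605 with a trend, 515 with only the arrays compared, 743 with the spike-ins and 3 to 1124 with 1 array left out. For the average (3220) they were 1350 with no filter and 979 to 2681 with 1 array left out, and for withdrawal 20081 (against 11267) and 20271 (against 11080) with the spike-ins and, in control cells, 7345 to 11081 with 1 array left out. The difference (0) gave at most 6 calls, with normexp.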
